A study of Homo sapiens with 6 samples.

Results

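CDKN1A, TP53INP1, TP53I3 and FAS are target genes of the transcription factor p53, and their transcripts were followed here on 6 arrays of HEK293 cells in which the RNA-binding protein LIN28B was depleted, left alone, or accompanied by a tagged copy. They are 4 of the 11584 genes that could be named from the 13008 probe sets of the table. Each of the 4 genes is read by 1 probe set annotated to it alone: 202284_s_at for CDKN1A, 225912_at for TP53INP1, 210609_s_at for TP53I3 and 216252_x_at for FAS. All 4 passed the filter on low values. The genes were selected on their log2 fold changes and calls between LIN28B-depleted cells and mock cells that were not induced. Their values in that comparison are therefore given as a description, with no test. The ending _s_at or _x_at marks a probe set that can also pick up related transcripts, which applies to CDKN1A, TP53I3 and FAS.

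The cell line of every group was HEK293 T-REx Flp-In, derived from human embryonic kidney and carrying a stably integrated FLAG/HA-LIN28B transgene under a doxycycline-inducible promoter. In 2 arrays the RNA came from cells transfected with siRNA against LIN28B, with the transgene not induced. A further 2 came from mock-transfected cells with the transgene induced, and 2 from mock-transfected cells without induction. The protocols give 250 ng/ml doxycycline for 15 to 20 h, a time stated for crosslinking and not for the array RNA. No array of cells given a non-targeting siRNA was analysed here, so siRNA transfection and loss of LIN28B cannot be told apart. The labels do not say whether the line is 1 clone or whether replicates were separate cultures. The p-values thus cover the spread of these arrays alone, and that spread may be technical. In bulk RNA, fewer cells with a transcript and less transcript per cell cannot be told apart.

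The p53 protein is held at low levels by the ubiquitin ligase MDM2 and its partner MDM4. Damage-sensing kinases such as ATM and ATR release it, and it then switches on genes for cell cycle arrest, cell death, DNA repair and metabolism. CDKN1A encodes p21, which inhibits cyclin-dependent kinases and stops the cell cycle. TP53INP1 encodes a stress-induced nuclear protein that acts with the kinase HIPK2 on p53 and takes part in autophagy. TP53I3, also called PIG3, encodes a quinone reductase linked to reactive oxygen species, and FAS encodes a death receptor at the cell surface that recruits FADD and caspase-8. HEK293 cells were made with adenovirus E1 genes, and an E1B protein binds p53 and restrains it as an activator.

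The stretches of DNA ahead of the annotated starts are shown because the genes share p53 as a regulator but differed in direction. They are the 250 bases before a RefSeq start (build GRCh38.p14), 5′ to 3′ on the gene's strand. The promoter table held 3 of the 4 genes: 1 start for CDKN1A, 1 for TP53I3 and 3 for FAS. TP53INP1 is named only. Capitals mark matches to the p53 decamer, the repeat unit of the p53 response element, and to the GC box GGGCGG, searched on both strands. The windows are chr6:36678464-36678713 (plus strand) for CDKN1A, chr2:24084835-24085084 (minus strand) for TP53I3 and chr10:88991181-88991430 (plus strand) for the FAS start that lies farthest along the gene.
CDKN1A: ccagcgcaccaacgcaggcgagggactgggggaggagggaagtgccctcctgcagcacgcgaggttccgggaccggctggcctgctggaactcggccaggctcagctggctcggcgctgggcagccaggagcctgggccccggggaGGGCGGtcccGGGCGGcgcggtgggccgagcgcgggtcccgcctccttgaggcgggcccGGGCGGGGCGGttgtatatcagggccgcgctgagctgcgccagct
TP53I3: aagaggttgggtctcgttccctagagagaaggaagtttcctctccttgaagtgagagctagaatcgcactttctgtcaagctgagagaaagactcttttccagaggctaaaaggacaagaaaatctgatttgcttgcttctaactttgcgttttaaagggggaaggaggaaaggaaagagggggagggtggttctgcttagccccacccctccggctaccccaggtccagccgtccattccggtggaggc
FAS: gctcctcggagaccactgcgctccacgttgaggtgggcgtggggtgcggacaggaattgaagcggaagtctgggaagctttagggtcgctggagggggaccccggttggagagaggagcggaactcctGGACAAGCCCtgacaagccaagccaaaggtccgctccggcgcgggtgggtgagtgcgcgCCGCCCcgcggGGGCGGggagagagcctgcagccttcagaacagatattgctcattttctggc

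The FAS window shown held 1 p53 decamer, GGACAAGCCC, whose last base lies 112 bases before the end of the window. This window lies past the other annotated FAS starts, so for transcripts from those starts it is within the gene and not ahead of it. The other FAS windows, which are not shown, held 0, as did those of CDKN1A and TP53I3. Of all 35116 windows of this length, 5.57% held the decamer. The GC box, which Sp1-type factors bind, occurred 4 times in the CDKN1A window, where the last pair shares a base. It occurred 2 times in the FAS window shown and 0 times in that of TP53I3. It was present in 42.6% of all windows. Among the 95 windows of measured p53 targets, these genes included, 74.7% held the GC box and 10.5% the decamer. All windows cover 27305 genes, measured here or not, so the gap to them is not read as a trait of p53 targets. No decamer overlapped a GC box in these windows. A match is a description of the letters, not of binding, and p53 elements of such genes can lie outside these windows.

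The siRNA target itself was checked first. LIN28B had log2 values of 7.51 and 7.53 in the siRNA cells, 10.15 and 10.11 in the induced mock cells and 10.02 and 9.85 in the mock cells not induced. The siRNA cells were therefore the low ones, at 18.7% of the level without induction (limma adjusted p = 5.02e-07). The HEK293 markers VIM, KRT8, KRT18, NEFL and CDH2 were in the table with values between 7.55 and 12.7 on every array, and NEFM and PAX2 were not analysed here. Of the markers of other cell types, CD79A, HBB and COL1A1 lay between 4.93 and 6.28, and SOX2 lay between 7.38 and 7.85. Between siRNA cells and mock cells not induced none of these 4 passed, while 3 of the 5 HEK293 markers did, beside 28.0% of all genes. With counts this small, no contrast between cell types is read from them. NEFL fell by 0.59 (limma adjusted p = 0.000113), VIM fell by 0.18 (adjusted p = 0.0121) and KRT8 rose by 0.38 (adjusted p = 0.0271).

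CDKN1A was higher in the siRNA cells than in either mock group. Its log2 values were 8.53 and 8.59 in the siRNA cells, 8.07 and 8.22 in the induced mock cells and 7.86 and 8.09 in the mock cells not induced. Both siRNA arrays lay above all 4 mock arrays, and the 2 mock groups overlapped. The means were 8.56 ± 0.05 in the siRNA cells, 8.14 ± 0.10 in the induced cells and 7.97 ± 0.16 in the cells not induced (SD, n = 2 each). The difference of siRNA from not induced cells was 0.59 on the log2 scale (SE 0.10), or 1.50-fold. It was 0.42 (SE 0.10) against the induced cells. Of all genes, 10.4% had an absolute change at least as large against the cells not induced.

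TP53INP1 had the largest difference of the 4 genes, and the replicates of the siRNA group lay close together. It read 7.42 and 7.43 in the siRNA cells, 6.46 and 6.25 in the induced mock cells and 6.42 and 6.46 in the mock cells not induced. The siRNA arrays stood nearly 1 log2 unit above every mock array. The mean difference of siRNA cells from cells not induced was 0.98 (SE 0.12), or 1.98-fold, and from induced cells 1.07 (SE 0.12). Of all genes, 2.3% had a change at least as large in the first of these comparisons.

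TP53I3 followed the same order. Its values were 6.90 and 7.03 in the siRNA cells, 6.07 and 6.07 in the induced mock cells and 6.05 and 6.16 in the mock cells not induced. The mock groups overlapped and the siRNA arrays lay above both. Means differed by 0.86 (SE 0.13), or 1.81-fold, between siRNA cells and cells not induced, and by 0.89 (SE 0.13) between siRNA cells and induced cells.

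FAS ran the other way. It read 6.40 and 6.55 in the siRNA cells, 6.90 and 6.86 in the induced mock cells and 7.09 and 7.08 in the mock cells not induced. No 2 of the 3 groups overlapped, with the siRNA cells lowest and the induced cells in between. The siRNA cells stood at 65.4% of the level of cells not induced, a log2 difference of -0.61 (SE 0.11). Against the induced cells the difference was -0.40 (SE 0.11). These comparisons share the siRNA arrays, so the second is not a repeat of the first.

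**Figure D1:**
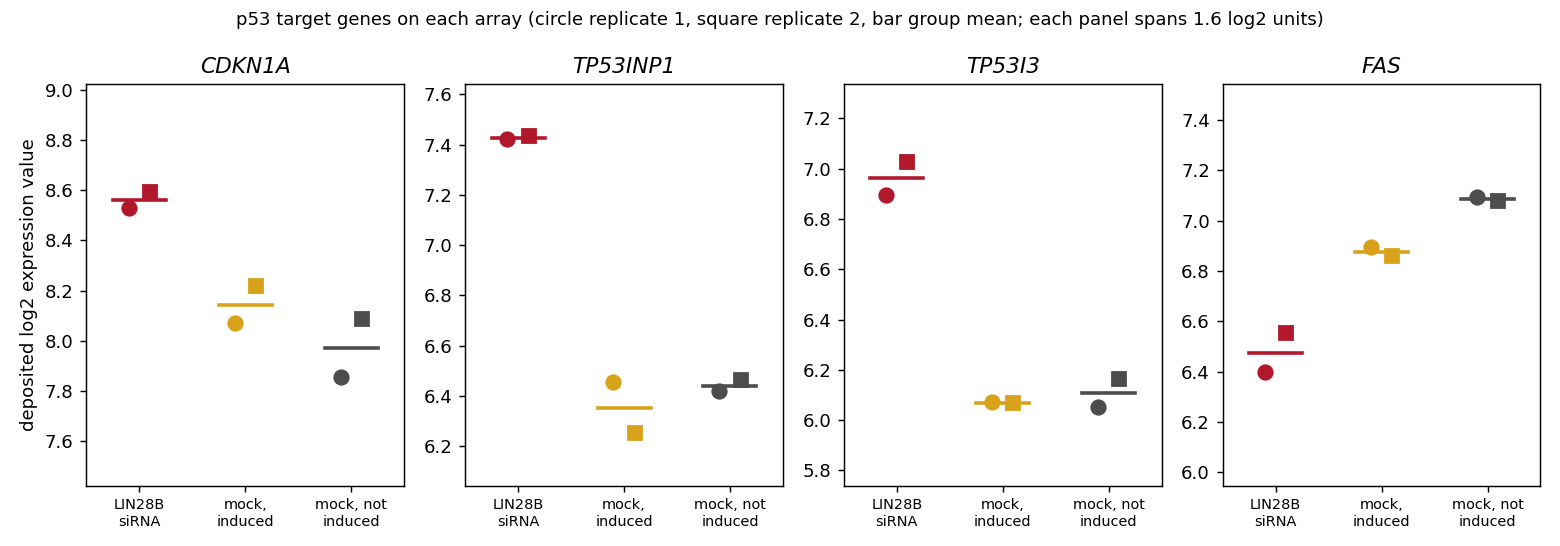
Deposited log2 values (y axis) of CDKN1A, TP53INP1, TP53I3 and FAS on the 2 arrays of each group (x axis), with circles for replicate 1, squares for replicate 2 and bars for group means. The siRNA arrays are highest for CDKN1A, TP53INP1 and TP53I3 and lowest for FAS, where they read 6.40 and 6.55.

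Arrays of 2 groups that do not overlap are a weak demand here. Between siRNA cells and mock cells not induced, 62.6% of the 11584 genes had groups apart, and 28.0% were called by limma at an adjusted p under 0.05, with 13.5% higher and 14.5% lower in the siRNA cells. Between siRNA cells and induced cells 68.0% had groups apart and 28.4% were called. The median log2 difference over all genes was 0.01 in both. Whether differences between arrays weighed in which probe sets were kept is not known, so these shares and medians hold for the genes of this table. The 4 genes were chosen as called ones, so nothing is read from their being among them.

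The fold change of induced over not induced mock cells was not used to choose the 4 genes, but its baseline is the same 2 arrays of cells not induced that entered the choice. The LIN28B probe set differed by 0.19 in this comparison (95% interval 0.02 to 0.37, not adjusted over genes, limma adjusted p = 0.999). Both induced arrays lay above those not induced, but the difference did not pass. Whether this probe set reads the tagged transgene was not examined, so these arrays show neither the induction nor its absence. Doxycycline and the transgene cannot be told apart. None of the 4 genes passed. CDKN1A differed by 0.17 on the log2 scale (95% interval -0.06 to 0.40), TP53INP1 by -0.09 (-0.36 to 0.18), TP53I3 by -0.04 (-0.32 to 0.24) and FAS by -0.21 (-0.47 to 0.05), each with a limma adjusted p of 0.999. FAS alone had groups that did not overlap, as had 27.5% of all genes. The background of calls in this comparison was 0 of 11584 genes, or 0%, and 344 genes had an unadjusted p under 0.05. The value of CDKN1A depended on the mock arrays not induced: it was 0.06 with replicate 1 left out and 0.29 with replicate 2 left out. TP53INP1 turned to 0.01 without induced replicate 2, and TP53I3 to 0.02 without replicate 2 of the cells not induced.

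**Figure D2:**
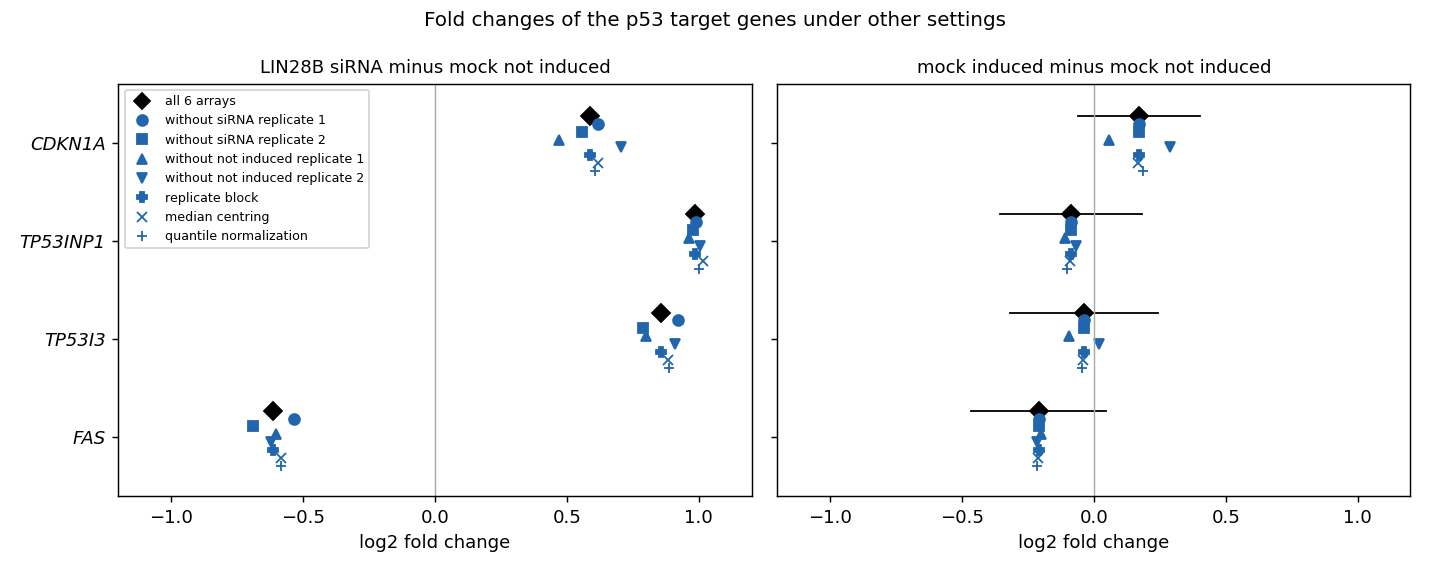
Log2 fold changes (x axis) of the 4 genes (rows) between siRNA cells and mock cells not induced (left panel) and between induced and not induced mock cells (right panel), with all 6 arrays (black diamonds, 95% intervals on the right) and under other settings (blue). In the left panel CDKN1A lies between 0.47 and 0.70 and FAS between -0.69 and -0.53, and in the right panel every black interval spans 0.

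The regulators of p53 moved in both directions in the siRNA cells. Of 27 listed regulators 23 were in the table, and 7 rose, 3 fell and 13 did not pass against mock cells not induced, a share of 43.5% against the 28.0% of all genes. The median log2 fold change was 0.11, against 0.01 over all genes. MDM2, the ubiquitin ligase for p53 and also its target, had values of 7.03 and 7.27 in the siRNA cells and 7.26 and 7.26 in the cells not induced, a log2 difference of -0.11 (95% interval -0.36 to 0.15, limma adjusted p = 0.54). MDM4 had -0.14 (-0.48 to 0.20, adjusted p = 0.535 by limma).

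ATR, a kinase that signals stalled replication, fell most among the regulators. It read 7.02 and 7.30 in the siRNA cells and 8.24 and 8.16 in the cells not induced, which is -1.04 on the log2 scale (SE 0.11, limma adjusted p = 0.000218). PRKDC, the catalytic subunit of DNA-dependent protein kinase, fell by 0.46. RCHY1, a ubiquitin ligase for p53, rose by 0.51, and so did the checkpoint kinase gene CHEK1 by 0.51. The acetyltransferase gene CREBBP and the deacetylase gene SIRT1 rose by 0.48 each. PPM1D, a phosphatase that is a p53 target and damps p53 signalling, rose by 0.34 (limma adjusted p = 0.0469). That call was lost under 7 of 14 alternatives, and of the arrays of cells not induced, loss of replicate 2 gave 0.15 and loss of replicate 1 gave 0.53. Fewer regulators were called higher without either siRNA array, as with genes at large.

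Beyond the 4 genes, other p53 targets were called about as often as genes at large. Of 81 further targets listed 67 were in the table, and 12 rose, 7 fell and 48 did not pass, a share of 28.4% beside the 28.0% of all genes. Their median log2 fold change was 0.06, against 0.01 over all genes. With either siRNA array left out, fewer were called higher and fewer lower, as with genes at large.

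Among targets that act in arrest, 3 of 13 beside CDKN1A rose, 1 fell and 9 did not pass, a share of 30.8% beside the 28.0% of all genes, with a median of 0.19. SFN, which encodes the 14-3-3 sigma protein that holds back entry into mitosis, had values of 6.74 and 6.64 in the siRNA cells and 5.75 and 5.81 in the cells not induced. It rose by 0.91 (SE 0.13, limma adjusted p = 0.00101), the largest rise of this list. The antiproliferative gene BTG3 rose by 0.73 and SERTAD1 by 0.45. CCNG1, the cyclin G gene, fell by 0.15, a call that was lost under 5 of 14 alternatives, among them centring of the arrays, and without either siRNA array or replicate 1 of the cells not induced.

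Of 20 targets that act in cell death, beside TP53INP1, TP53I3 and FAS, 3 rose, 2 fell and 15 did not pass, a share of 25% near the 28.0% of all genes, with a median of 0.03. STEAP3, a ferrireductase gene, had the largest change, with 6.88 and 7.08 in the siRNA cells against 8.16 and 8.38 in the cells not induced. It fell by 1.29 (SE 0.11, limma adjusted p = 7.93e-05). SIVA1, which encodes a pro-apoptotic adaptor protein, fell by 0.51. TNFRSF10D, a decoy receptor for the death ligand TRAIL, rose by 0.58. The others that rose were ZMAT3 by 0.47 and PMAIP1 by 0.19 (limma adjusted p = 0.0116 and 0.00882). Also in this list, the pore-forming BAX had 0.04 and the TRAIL receptor gene TNFRSF10B -0.03, both not passing (limma adjusted p = 0.899 and 0.916). BAX and TNFRSF10B were picked after their values were seen. ZMAT3, PMAIP1, BAX and TNFRSF10B lie outside the naming rule given below, and their values under the alternatives were not examined.

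In the list of repair, metabolism and other targets, 6 of 34 rose, 4 fell and 24 did not pass, a share of 29.4% near the 28.0% of all genes, with a median of 0.04. KITLG, the ligand of the KIT receptor, rose by 0.74 (SE 0.09, adjusted p = 0.000423 by limma), on arrays that read 9.62 and 9.51 in the siRNA cells and 8.94 and 8.71 in the cells not induced. ANKRA2 rose by 0.55 and TRIAP1, a mitochondrial lipid transfer gene, by 0.46. TIGAR, a bisphosphatase that slows glycolysis, rose by 0.47, though of the arrays not induced, loss of replicate 2 gave 0.20 and loss of replicate 1 gave 0.75. FBXW7, a ubiquitin ligase subunit, rose by 0.38. The growth factor gene TGFA fell by 0.90, or by 0.54 when replicate 1 of the cells not induced was left out. The calls of TIGAR, FBXW7 and TGFA were lost without either siRNA array and under some further alternatives. Fewer genes of the list were called lower without either siRNA array or either induced array, as with genes at large.

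**Figure D3:**
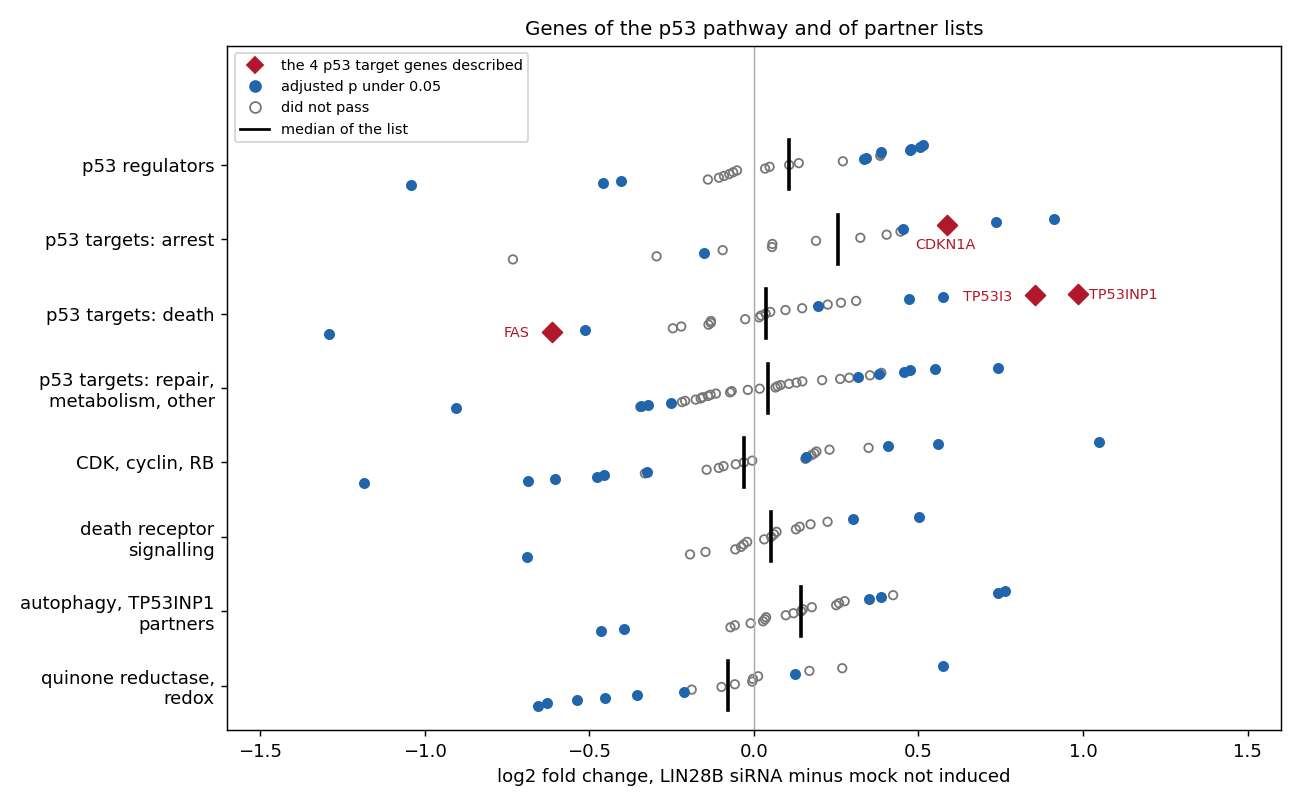
Log2 fold change of siRNA cells over mock cells not induced (x axis) for the genes of 8 lists (rows), with filled circles for an adjusted p under 0.05, open circles for genes that did not pass, red diamonds for the 4 p53 target genes and black lines for list medians. The medians include the 4 genes and lie between -0.08 and 0.26, the latter for arrest targets, which have 0.19 without CDKN1A. As deposited, each list holds called genes on both sides of 0.

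The partners of p21 also moved both ways. Of 23 genes of cyclin-dependent kinases, cyclins, their inhibitors and the RB family, 4 rose, 6 fell and 13 did not pass, a share of 43.5% beside the 28.0% of all genes, with a median of -0.03. CDKN1B, which encodes p27 of the same inhibitor family as p21, had 10.69 and 10.46 in the siRNA cells and 9.57 and 9.48 in the cells not induced. It rose by 1.05 (SE 0.08, limma adjusted p = 5.32e-05). SKP2, the ubiquitin ligase subunit that marks p27 and p21 for breakdown, had 8.18 and 8.27 in the siRNA cells and 9.50 and 9.31 in the cells not induced. It fell by 1.19 (SE 0.09, limma adjusted p = 3.76e-05), the largest fall of the list. The inhibitor gene CDKN2B fell by 0.69, the transcription factor gene E2F5 by 0.60 and the cyclin gene CCNA2 by 0.48. The RB family gene RBL2 rose by 0.56. RB1 of that family fell by 0.45 and the cyclin gene CCNE1 rose by 0.41 (limma adjusted p = 0.00244 and 0.00322). RB1 and CCNE1 lie outside the naming rule given below, and their values under the alternatives were not examined. CDKN2B had -0.32 when replicate 2 of the cells not induced was left out and -1.05 when replicate 1 was, and its call was lost under 5 of 14 alternatives, quantile normalization among them. The list had fewer called lower without siRNA replicate 1 and fewer called higher without siRNA replicate 2, as with genes at large.

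Downstream of FAS and the other death receptors, 2 of 17 genes rose, 1 fell and 14 did not pass, with a median of 0.05 and a share of 17.6% beside the 28.0% of all genes. CYCS, the cytochrome c gene, fell by 0.69 (SE 0.06, limma adjusted p = 0.000119). BIRC2 and XIAP, both inhibitors of apoptosis, rose by 0.50 and 0.30. The call of XIAP was lost under 6 of 14 alternatives, including the loss of either induced array, either siRNA array or replicate 2 of the cells not induced.

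Among autophagy genes and partners of TP53INP1, 4 of 21 rose, 2 fell and 15 did not pass, a share of 28.6% near the 28.0% of all genes, with a median of 0.14. ATG14 and BECN1, which sit in the lipid kinase complex that starts autophagosomes, rose by 0.76 (SE 0.10) and 0.74 (SE 0.08), with limma adjusted p = 0.000573 and 0.000233. WIPI2 rose by 0.39 and GABARAP, whose product binds TP53INP1, by 0.35. RB1CC1, a scaffold of the ULK kinase complex, fell by 0.46 and MAP1LC3B, which encodes a protein of autophagosome membranes, by 0.40. With siRNA replicate 1 left out, fewer of the list were called lower, as with genes at large.

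Of 16 quinone reductase and redox genes, a group that holds the enzyme class of TP53I3, 6 fell, 2 rose and 8 did not pass, with a median of -0.08. The share called was 50% beside 28.0% of all genes (14.5% lower and 13.5% higher). NQO1 and NQO2, quinone reductases of another family, fell by 0.66 (SE 0.14) and 0.54 (SE 0.08). The glutathione peroxidase gene GPX1 fell by 0.63 (SE 0.06, limma adjusted p = 0.000172). MECR, of the same dehydrogenase superfamily as TP53I3, fell by 0.45, and the thioredoxin reductase gene TXNRD1 fell by 0.36. HMOX1, the heme oxygenase gene, rose by 0.57. Without replicate 1 of the cells not induced TXNRD1 had -0.23. Fewer of the list were called higher without either siRNA array and fewer lower without siRNA replicate 2, as with genes at large. Fewer were also called higher without replicate 1 of the cells not induced, where genes at large called higher were not fewer.

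Among the genes named from these lists, CCNA2, CHEK1, CREBBP, HMOX1, MECR, RB1CC1, RBL2, SERTAD1, SIRT1, TXNRD1 and WIPI2 also lost their call without 1 or other of the siRNA arrays, a fit in which the single array left is taken to vary as the other groups do. Of these, CHEK1 also lost it without replicate 2 of the cells not induced. CREBBP lost it without replicate 1 of those cells, where its value was 0.31. MDM2, BTG3, TNFRSF10B, XIAP and RB1CC1 were read by probe sets ending in _x_at. Over all the losses of calls given for these lists the limma adjusted p lay between 0.0507 and 0.239.

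The profiles most like those of the 4 genes were sought over the 6 arrays, each gene centred on its own mean, by the root mean square difference in log2 units. For CDKN1A these were ENC1 and AMOTL2, at 0.03 each. RGCC at 0.05 and COPS7B at 0.07 were closest to TP53INP1, EXT1 at 0.04 and NKIRAS1 at 0.06 to TP53I3, and LAYN at 0.03 and SNAPC1 at 0.04 to FAS. The median gene lay 0.29 from CDKN1A, 0.50 from TP53INP1, 0.43 from TP53I3 and 0.29 from FAS. Pearson's r with the named gene was between 0.990 and 0.996 in each case, over 6 arrays that form 3 groups, so it mostly reflects the differences between groups.

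**Figure D4:**
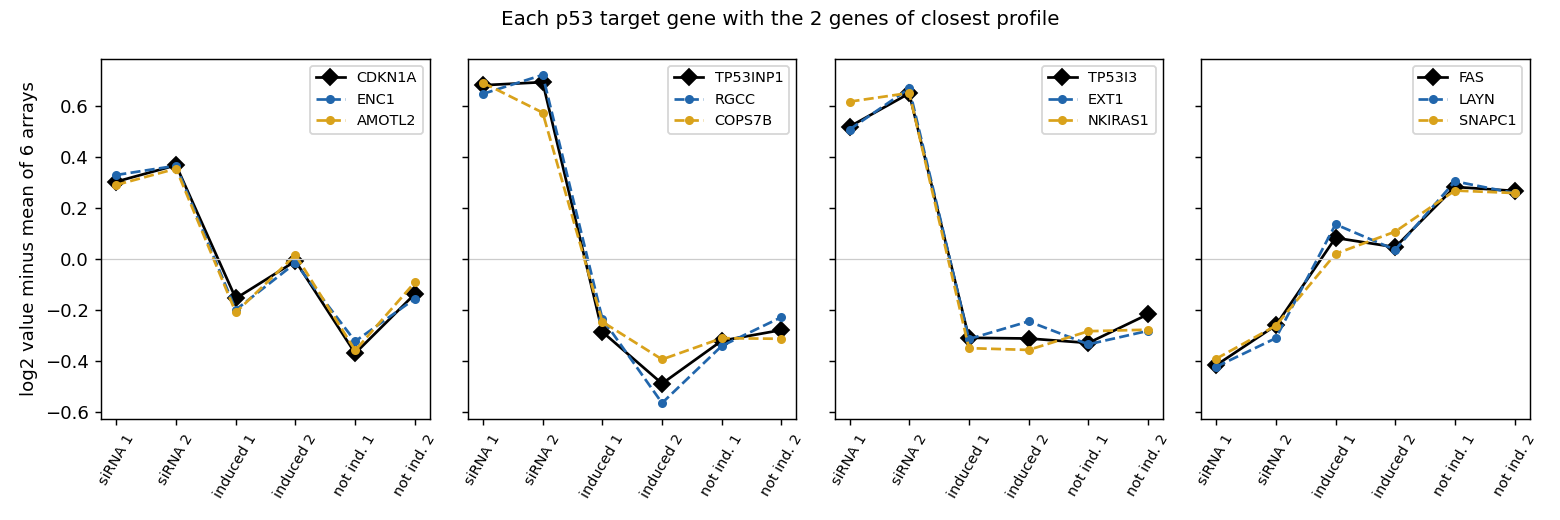
Log2 value minus the mean of the 6 arrays (y axis) on each array (x axis, lines join arrays of 1 gene) for each p53 target gene (black) and the 2 genes of closest profile (blue and orange). The black line of FAS passes through an intermediate level on the induced arrays, a difference from cells not induced that did not pass. In the black lines of CDKN1A, TP53INP1 and TP53I3 the siRNA arrays stand apart from mock groups that overlap.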

How the data were processed

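The table holds the authors' deposited log2 expression values per probe set of 6 Affymetrix Human Genome U133 Plus 2.0 arrays, made with affy and GCRMA per the submitters' processing notes, whose versions are not given in the sources used here, like the genome build. This method corrects background, brings arrays to a common distribution and summarises probes. The base was taken as 2, which GCRMA returns. The table holds part of the array's probe sets, by a rule not given in the sources used here, and values ran from 2.59 to 14.3, with array medians of 7.126 to 7.177. Precision is limited by the number of arrays.

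Of 13008 probe sets, 11719 had 1 symbol in the platform annotation, 609 several and 680 none. Symbols were updated by gene identifier to RefSeq (GRCh38.p14, 11578 of 11584 genes matched). For 130 genes with several probe sets, that of highest mean was used. A filter (above 4 on at least 2 arrays) removed 0 probe sets.

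Tests used limma 3.58.1 under R 4.3.3 (lmFit, eBayes with trend), in 1 model of 3 groups, two-sided, with Benjamini-Hochberg adjustment over all genes and calls at an adjusted p under 0.05. There were 3 residual and 6.73 prior degrees of freedom. SE is that of the fold change. The script was tested on simulated data. Promoter windows were searched with Python 3.11.15.

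The members, lists and tests were chosen with earlier results of these data known. Named genes were the 4 members, LIN28B, MDM2, MDM4 and PPM1D, up to 6 called genes of largest change per list, and the 2 closest profiles per member. Alternatives were median centring, quantile normalization, a stricter filter (mean above 6), no filter, averaged probe sets, no trend, only the 4 arrays compared, the replicate number as a block, and each array left out.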

Additional observations from a re-analysis of the deposited data

How the results depend on the processing

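Results were recomputed under 14 alternatives, or 13 for NQO1, TGFA and RGCC, which the stricter filter removed. Counts by list in this section keep CDKN1A among the arrest targets and TP53INP1, TP53I3 and FAS among the death targets. These 4 genes were chosen as called ones, and the counts of further p53 targets leave them out. Of 1299 values over 93 results, 1191 were rated the same and 0 reversed. Part of this tally was fixed in advance. The filter removed 0 probe sets, so leaving it out changed nothing. No trend and the block can change the p-value of a gene but not its fold change. For tested fold changes, the same meant that direction and side of the threshold were kept. A change of sign between values that did not pass was also rated the same, as for TP53INP1 and TP53I3 in induced cells. Counts were rated the same within a set ratio, and the siRNA values of the 4 genes within their residual spread. The fold changes of the 4 p53 target genes between siRNA cells and either mock group kept their sign under all 14. Most of these settings could not change them. Other filters, averaged probe sets, no trend, the block and the loss of arrays outside the comparison leave these fold changes as they are. The genes were also selected on the comparison with cells not induced, so the kept sign is a description only. With 1 array left out in turn, CDKN1A ranged from 0.47 to 0.70, TP53INP1 from 0.96 to 1.01, TP53I3 from 0.79 to 0.92 and FAS from -0.69 to -0.53 against mock cells not induced. Against induced cells TP53INP1 ranged from 0.97 to 1.17 and FAS from -0.48 to -0.32.

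Leaving out 1 array moved the number of genes called between 1664 and 3143 for siRNA against not induced cells (3242 with all arrays), between 1702 and 3951 for siRNA against induced cells (3295 with all arrays), and between 0 and 1 for induced against not induced cells. Numbers of list members called for siRNA against not induced cells ranged, with 1 array left out, from 7 to 14 higher and 2 to 8 lower for the further p53 targets (8 lower with the replicate block). By list these ranges were 1 to 6 higher for regulators, 0 to 1 lower for arrest targets, 3 to 7 higher for death targets, 3 to 5 higher and 0 to 4 lower for repair and metabolism targets, 2 to 4 higher and 3 to 5 lower for cell cycle partners, 1 to 2 higher for death receptor signalling, 1 to 2 lower for autophagy and 0 to 2 higher and 3 to 7 lower for redox genes.

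Without the intensity trend, further p53 targets called lower numbered 3 in place of 7, arrest targets lower 0 in place of 1, repair and metabolism targets lower 1 in place of 4 and redox genes higher 1 in place of 2. Centring left 0 arrest targets lower. It called 1836 genes higher and 1521 lower between siRNA and not induced cells, against 1563 and 1679 as deposited. With only the 4 arrays compared, repair and metabolism targets lower numbered 2 and death receptor genes higher 1. The replicate number as a block gave 2 arrest targets lower and 3422 genes called between siRNA and not induced cells. The cause of these shifts was not tested.

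Replicate numbers were not taken to pair the arrays: deviations of replicate 1 from its group mean correlated at -0.06 between siRNA and not induced cells, 0.18 between induced and not induced cells and 0.02 between siRNA and induced cells. The FAS value rests on a single probe set that can pick up related transcripts, and each of the other 3 genes on a single one too.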
